A study of Mus musculus with 58 samples.

Results

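Among the 24122 genes of the kidney count table, 9 are markers of tissues that lie against the kidney, and they are described here library by library. They fall into 3 groups: the adrenal cortex genes Cyp11b1, Cyp11a1, Cyp21a1 and Star, the adrenal medulla genes Th and Dbh, and the fat genes Ucp1, Cidea and Adipoq. The 9 genes were chosen by their known tissue of expression and by their levels in these same 29 kidney libraries, so the kidney levels and dose differences below are descriptions without a test of their own. The 29 liver libraries of the same series took no part in that choice. The question addressed is which kidney libraries hold such RNA and how it enters the comparisons of dose with vehicle.

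The study gave mice a single intragastric dose of the chlorinated solvent trichloroethylene (TCE) or tetrachloroethylene (PCE) and sequenced liver and kidney RNA. The TCE groups received 24, 80, 240 or 800 mg/kg and the PCE groups 30, 100, 300 or 1000 mg/kg, which the labels match as 0.22, 0.67, 2 and 6 mmol/kg of either chemical. Each chemical had its own vehicle group, given 5% Alkamuls El-620 in saline at 5 mL/kg. Every group had 3 libraries per tissue, except PCE vehicle in kidney and PCE 0.67 mmol/kg in liver, which had 2 each. All animals were males of 5 to 6 weeks, B6C3F1/J by the protocol text and C57BL/6 by another label, and none carried a transgene or targeted allele by the labels. The sources used here do not state the time of sampling, the part of the kidney taken or how it was freed from surrounding tissue. The labels do not say that replicates are separate animals, so the p-values measure only how these samples spread, which may be technical. Kidney libraries held 23247565 to 32420329 counts, and liver libraries 30932385 to 125880542 counts.

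The adrenal gland sits on the upper pole of the kidney and has a steroid-making cortex around a catecholamine-making medulla. In the cortex, Star carries cholesterol into mitochondria, Cyp11a1 cleaves its side chain to give pregnenolone, Cyp21a1 is the 21-hydroxylase, and Cyp11b1 performs the last 11-beta hydroxylation to corticosterone. In the chromaffin cells of the medulla, Th makes L-DOPA from tyrosine, the rate-limiting step, and Dbh turns dopamine into noradrenaline. Fat surrounds the kidney and its hilum, and in young mice part of it is brown fat. Ucp1 is the mitochondrial uncoupling protein of brown fat heat production, Cidea is a lipid droplet protein abundant in brown fat, and Adipoq encodes adiponectin, a hormone secreted by all adipocytes. In bulk RNA, fewer cells of a type and less RNA per cell cannot be told apart.

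The members lie on separate loci of GRCm38, the assembly also called mm10, by the RefSeq table of GRCm38.p6. Cyp11b1 spans chr15:74834892-74841643, Cyp11a1 chr9:57998024-58027031, Cyp21a1 chr17:34801348-34804426 and Star chr8:25808474-25815982. Th spans chr7:142892779-142899995 and Dbh chr2:27165507-27183204. Ucp1 spans chr8:83290348-83298456 and Adipoq chr16:23146536-23157968. Each span covers the exons, UTRs and introns of the gene, and reads were counted per RefSeq transcript. Cyp11b1 has a close relative in Cyp11b2 and Cyp21a1 has a pseudogene copy, so the split of reads within these pairs is uncertain.

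The promoters of the medulla pair are shown because both genes are known to respond to cAMP in chromaffin cells. Th and Dbh correlated at r = 0.999 over the 29 kidney libraries in log2(CPM + 0.5), and at 0.822 (rho 0.701) without library 3 of TCE 0.67 mmol/kg. RefSeq's promoter table for GRCm38.p6 held 5 of the 9 members. The sequences below are the 250 bases before each start site, 5′ to 3′ on the gene's strand, chr7:142899996-142900245 on the minus strand for Th and chr2:27165257-27165506 on the plus strand for Dbh. Capitals mark the full cAMP response element TGACGTCA, which reads the same on both strands.
Th: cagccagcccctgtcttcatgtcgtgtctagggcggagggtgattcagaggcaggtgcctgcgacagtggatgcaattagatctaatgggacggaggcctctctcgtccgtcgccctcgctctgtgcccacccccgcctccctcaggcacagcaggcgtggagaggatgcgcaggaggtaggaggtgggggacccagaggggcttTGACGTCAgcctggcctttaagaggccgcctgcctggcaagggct
Dbh: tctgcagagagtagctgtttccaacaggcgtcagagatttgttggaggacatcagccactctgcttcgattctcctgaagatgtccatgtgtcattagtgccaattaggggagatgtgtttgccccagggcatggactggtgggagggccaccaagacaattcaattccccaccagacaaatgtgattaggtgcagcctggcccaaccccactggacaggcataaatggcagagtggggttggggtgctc
The Th window held 1 match, which began 45 bases before the start site, and the Dbh window held 0. Of 32851 windows of the same length in the table, 508 (1.55%) held the element. A match of letters is a description, and its absence says only that these letters are not in this window.

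One kidney library, the third of the TCE 0.67 mmol/kg group, carried every adrenal member at a level seen in no other. Levels are given as CPM, each library's counts scaled to the same total after TMM normalization. In that library Cyp21a1 reached 1246 CPM, Cyp11a1 977.8 CPM, Cyp11b1 565.2 CPM and Star 1280 CPM. The highest values in the other 28 kidney libraries were 3.48 CPM for Cyp21a1, 2.31 CPM for Cyp11a1, 1.55 CPM for Cyp11b1 and 7.58 CPM for Star. The medulla enzymes followed the same library, with 106.1 CPM of Th (3335 counts) and 87.5 CPM of Dbh (2749 counts), against at most 4 counts of Th and 3 counts of Dbh in any other. Per kilobase of transcript the levels in that library ordered as Cyp21a1 (606 CPM per kb), Cyp11a1 (461), Star (316), Cyp11b1 (179), Th (58.03) and Dbh (34.3).

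Taken gene by gene over all kidney libraries, Cyp11b1 was at 0 in 16 of 29 libraries and Th in 22. Dbh was at 0 in 19, Cyp11a1 in 9 and Cyp21a1 in 4. Star differed from the other adrenal members in being present in all 29, with a median of 4.52 CPM and a lowest value of 3.19 CPM. A count of 0 allows up to 0.0925 to 0.129 CPM, the value of 3 counts at the depths of these libraries, for counting error only.

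**Figure D1:**
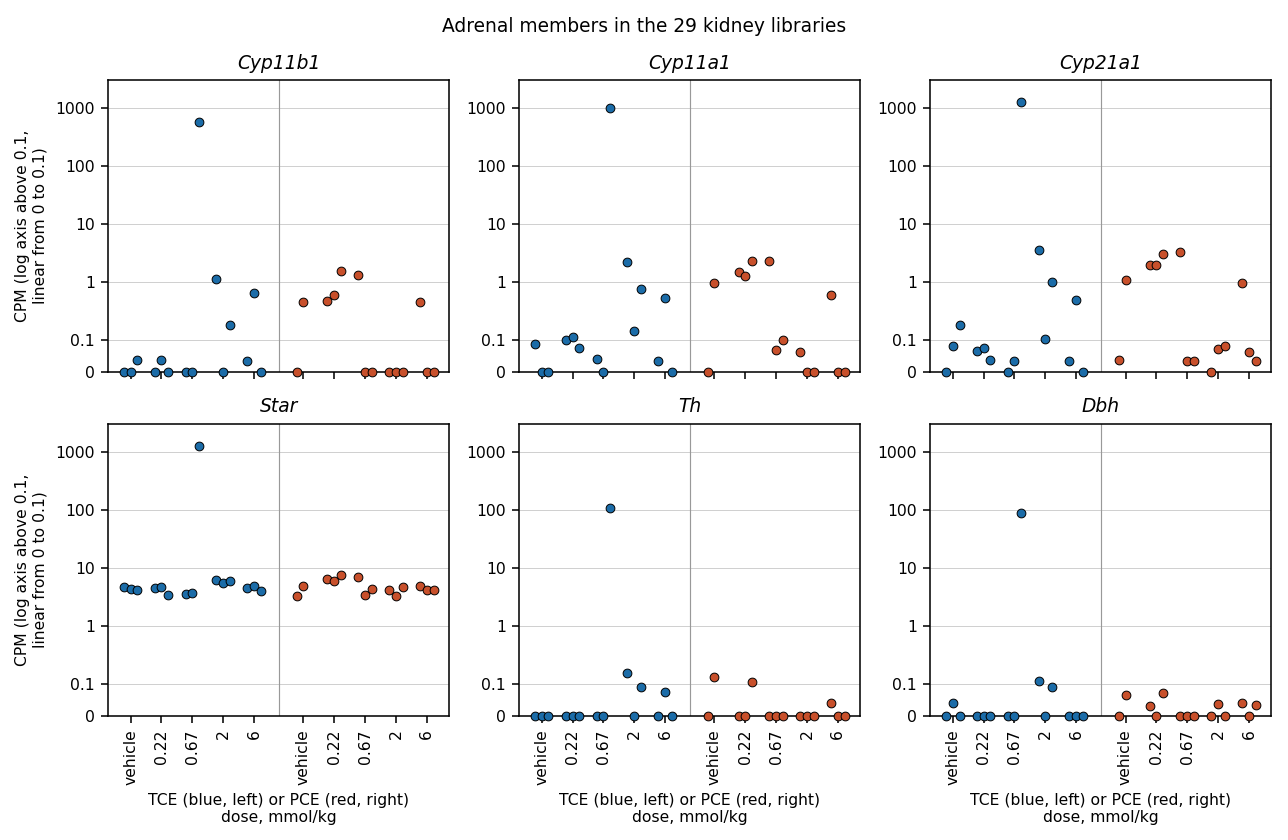
CPM of the 6 adrenal members in each of the 29 kidney libraries, by chemical and dose (mmol/kg), with vehicle at the left of each series; each point is 1 library and the CPM axis is logarithmic above 0.1 and linear below. Library 3 of TCE 0.67 mmol/kg lies at 87.5 to 1280 CPM in all 6 panels, and Star alone is above 3 CPM in every library.

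Cyp21a1 shows how the low values were spread. In the TCE series its level was 0, 0.0806 and 0.182 CPM in the vehicle libraries, 0.0655, 0.0750 and 0.0364 CPM at 0.22 mmol/kg, and 0, 0.0336 and 1246 CPM at 0.67 mmol/kg. At 2 mmol/kg of TCE it was 3.48, 0.105 and 0.976 CPM, and at 6 mmol/kg 0.0322, 0.481 and 0 CPM. Within TCE the high libraries were 1 of 3 at 0.67, 2 of 3 at 2 and 1 of 3 at 6 mmol/kg, and every dose group overlapped its vehicle group. In the PCE series the 2 vehicle libraries had 0.0384 and 1.05 CPM of Cyp21a1, which had 1.96, 1.97 and 2.98 CPM at 0.22 mmol/kg, and 3.31, 0.0347 and 0.0325 CPM at 0.67 mmol/kg. It was at 0, 0.0720 and 0.0809 CPM at 2 mmol/kg and at 0.960, 0.0623 and 0.0340 CPM at 6 mmol/kg of PCE. All 3 libraries of PCE 0.22 mmol/kg lay above both vehicle libraries, and 1 of the 2 vehicle libraries was itself above 1 CPM.

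The summed level of Cyp11b1, Cyp11a1 and Cyp21a1 split the libraries into a high and a low range. Its median was 0.130 CPM, and 10 of 29 libraries were above 10 times that, 1.30 CPM. Apart from the library at 2789 CPM, these were libraries 1 (6.82 CPM) and 3 (1.91 CPM) of TCE 2 mmol/kg, library 2 of TCE 6 mmol/kg (1.63 CPM) and library 1 of PCE 0.67 mmol/kg (6.92 CPM). The others were all 3 libraries of PCE 0.22 mmol/kg (3.89, 3.84 and 6.83 CPM), library 1 of PCE 6 mmol/kg (2.00 CPM) and library 2 of PCE vehicle (2.45 CPM). The highest library below the line, library 2 of TCE 2 mmol/kg, had 0.244 CPM. The line was passed by 9 of 24 dosed libraries and by 1 of 5 vehicle libraries.

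The proportions of the 3 steroid enzymes were counted in the 10 libraries above the line. In library 3 of TCE 0.67 mmol/kg, Cyp11b1 made up 20.3%, Cyp11a1 35.1% and Cyp21a1 44.7% of their 87635 summed counts. In the 9 other high libraries, with 43 to 190 summed counts each, Cyp11b1 made up 9.30 to 38.6%, Cyp11a1 30.0 to 39.5% and Cyp21a1 29.6 to 51.4%. Library 2 of TCE 6 mmol/kg differed from the rest in its order, with Cyp11b1 at 38.6%, Cyp11a1 at 31.8% and Cyp21a1 at 29.6% of 44 counts. Over all 29 libraries the Pearson correlation of log2(CPM + 0.5) between Cyp11a1 and Cyp21a1 was 0.996, and it was 0.985 without library 3 of TCE 0.67 mmol/kg. Star, which has its own level in kidney, correlated with Cyp11a1 at 0.963, and at 0.856 without that library. These are descriptions over libraries in which most enzyme counts were near 0.

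The share of the medulla genes was counted in the same libraries. As a share of the counts of Th, Dbh and the 3 cortex enzymes together, Th and Dbh made up 6.49% (95% exact Clopper-Pearson interval 6.34 to 6.65%) in library 3 of TCE 0.67 mmol/kg. Library 3 of TCE 2 mmol/kg had 8.51% (2.37 to 20.4%) and library 2 of PCE vehicle 7.23% (2.70 to 15.1%). In library 1 of PCE 0.67 mmol/kg neither gene was counted among 180 counts, where the same interval allows a share of up to 2.03%. In library 2 of PCE 0.22 mmol/kg neither was counted among 111, where it allows up to 3.27%. The intervals cover counting error only, and most of them overlap.

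Chga and Chgb, the chromogranins of secretory granules in chromaffin cells, had higher counts in the same libraries. With the same cortex enzymes in the sum, their share was 29.2% (28.9 to 29.5%) in library 3 of TCE 0.67 mmol/kg. It was 37.5% (26.9 to 49.0%) in library 1 of PCE 6 mmol/kg and 32.5% (24.0 to 41.9%) in library 2 of PCE vehicle. In the libraries of PCE 0.22 mmol/kg it was 13.4, 13.3 and 14.0%, and in library 1 of PCE 0.67 mmol/kg 3.23% (1.19 to 6.89%). So libraries with a like sum of cortex enzymes, 6.92 CPM in PCE 0.67 mmol/kg library 1 and 6.82 CPM in TCE 2 mmol/kg library 1, differed in chromogranin share beyond counting error, at 3.23% and 20.9% (15.8 to 26.7%).

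**Figure D2:**
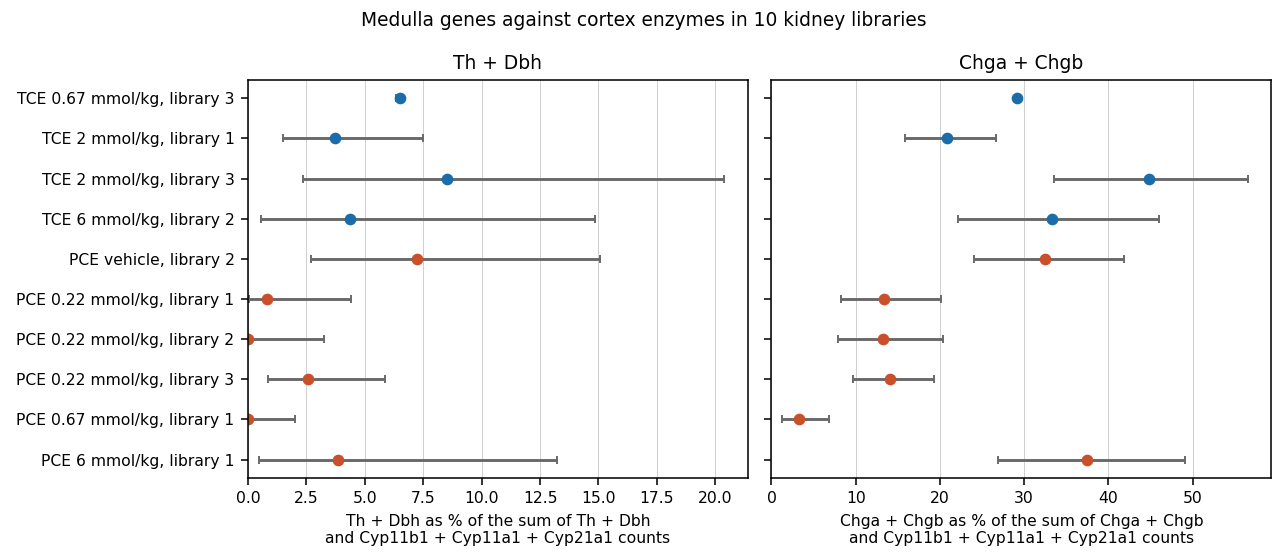
Share of Th + Dbh counts (left) and of Chga + Chgb counts (right) in their sum with Cyp11b1, Cyp11a1 and Cyp21a1, in percent, for the 10 kidney libraries with a summed enzyme level above 1.30 CPM; bars are 95% exact intervals for counting error. The chromogranin share lies between 3.23% in library 1 of PCE 0.67 mmol/kg and 44.9% in library 3 of TCE 2 mmol/kg.

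Other adrenal genes marked the same library. In library 3 of TCE 0.67 mmol/kg, 35 genes reached at least 10 CPM and more than 10 times their highest level in any other kidney library, and together they held 0.856% of its counts. All 6 adrenal members were among them, with 11 of the 27 further cortex and medulla genes listed for this description. These included Hsd3b1 (959 CPM), the steroid dehydrogenase of the adrenal and gonads in mice, Akr1b7 (468 CPM), an aldo-keto reductase of the mouse adrenal cortex, and Nr5a1 (53.2 CPM), the nuclear receptor of steroidogenic cells. From the medulla list they included Chgb (668 CPM), Chga (482 CPM), Scg2 (178 CPM), the secretogranin of dense-core granules, and Pnmt (32.1 CPM), which makes adrenaline. Each of the other 28 libraries had 0 to 4 genes that set it apart by the same measure.

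The zones of the cortex and neighbouring tissues were also read in that library. Cyp11b2, the aldosterone synthase of the outer zone, was at 70.8 CPM in it and at most 0.191 CPM elsewhere. Cyp17a1, which mouse adrenal cortex is known to lack, was at 0.541 CPM in it, within the range of the other libraries (0.0325 to 1.24 CPM). Mc2r, the ACTH receptor, was at only 0.0955 CPM in it. Of the 6 sympathetic neuron genes, 5 were highest in that library, at a summed 24.4 CPM against 1.68 to 3.90 CPM elsewhere, and Prph was at 0 in all 29. Pancreas acinar genes summed to at most 0.111 CPM and skeletal muscle genes to at most 2.76 CPM in any kidney library. The 10 kidney tubule and glomerulus genes summed to 53520 CPM in it, within the 49500 to 78540 CPM of the others. Markers of the labelled tissue were thus present in it, with most of that sum from Kap (36930 CPM) and Slc34a1 (10680 CPM). Aqp2, at 131.3 CPM, was below its range in the others (139.7 to 607.3 CPM).

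The genes most like the cortex members, by Pearson correlation of log2(CPM + 0.5) over the 29 kidney libraries with the mean of the 4 members, were Hsd3b1 (r = 0.998), Chgb (0.975), Chga (0.968), Trank1 (0.941) and Meg3 (0.938). Without library 3 of TCE 0.67 mmol/kg the values were 0.982 for Hsd3b1, 0.786 for Chgb, 0.735 for Chga, 0.347 for Trank1 and 0.465 for Meg3. Most like the mean of Th and Dbh were Chga (0.989), Fdxr (0.979), Trank1 (0.978), Ptprn (0.976) and Chgb (0.975). Without that library Chga stayed at 0.900 and Chgb at 0.888, and Fdxr (-0.04), Trank1 (-0.08) and Ptprn (-0.03) did not, so the likeness of those 3 rested on 1 library. The libraries share a kit and a depth range, and these values are descriptions.

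The fat members were present in all 29 kidney libraries and differed widely between libraries of the same group. Ucp1 ran between 0.0404 and 111 CPM with a median of 3.10 CPM, Cidea between 0.120 and 39.3 CPM with a median of 1.50 CPM, and Adipoq between 0.243 and 57.9 CPM with a median of 6.08 CPM. Within single groups the highest library exceeded the lowest, in the sum of the 3 genes, by 131 times at PCE 6 mmol/kg and 109 times at TCE 0.67 mmol/kg, and by 3.12 times in TCE vehicle.

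Ucp1 had 3.33, 3.10 and 5.09 CPM in the TCE vehicle libraries, 1.15, 35.3 and 3.82 CPM at 0.22 mmol/kg, and 0.445, 8.19 and 33.8 CPM at 0.67 mmol/kg. At 2 mmol/kg of TCE it had 1.16, 90.4 and 1.46 CPM, and at 6 mmol/kg 40.5, 106.5 and 0.974 CPM. Each TCE dose had libraries both above and below the vehicle libraries. In the PCE series Ucp1 had 2.38 and 9.40 CPM in the vehicle libraries, 13.2, 60.0 and 68.8 CPM at 0.22 mmol/kg, and 1.54, 0.209 and 1.30 CPM at 0.67 mmol/kg. At 2 mmol/kg of PCE it had 0.0937, 0.720 and 0.0404 CPM, and at 6 mmol/kg 0.360, 0.156 and 111 CPM. The PCE groups at 0.22 mmol/kg (above) and at 0.67 and 2 mmol/kg (below) did not overlap their vehicle libraries, while PCE 6 mmol/kg held 2 libraries below both vehicle libraries and the highest library of all 29.

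By group median, Ucp1 ordered as PCE 0.22 mmol/kg (60.0 CPM), TCE 6 (40.5), TCE 0.67 (8.19), PCE vehicle (5.89), TCE 0.22 (3.82), TCE vehicle (3.33), TCE 2 (1.46), PCE 0.67 (1.30), PCE 6 (0.360) and PCE 2 mmol/kg (0.0937). The order did not follow dose in either chemical, and the ranges of every pair of neighbours in it overlapped.

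Adipoq gave a different order of libraries. It was 6.27, 28.4 and 4.25 CPM in TCE vehicle, 0.852, 17.3 and 3.38 CPM at TCE 0.22 mmol/kg and 0.243, 21.0 and 57.9 CPM at TCE 0.67 mmol/kg. At TCE 2 mmol/kg it was 10.1, 8.55 and 2.66 CPM, and at TCE 6 mmol/kg 19.8, 36.2 and 4.32 CPM. In PCE it was 0.384 and 6.37 CPM in vehicle, 16.7, 19.0 and 20.9 CPM at 0.22 mmol/kg, and 6.08, 3.54 and 3.80 CPM at 0.67 mmol/kg. It was 4.21, 0.360 and 5.66 CPM at PCE 2 mmol/kg and 0.920, 2.93 and 32.7 CPM at PCE 6 mmol/kg. Only the PCE 0.22 mmol/kg libraries stood clear of their vehicle libraries.

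**Figure D3:**
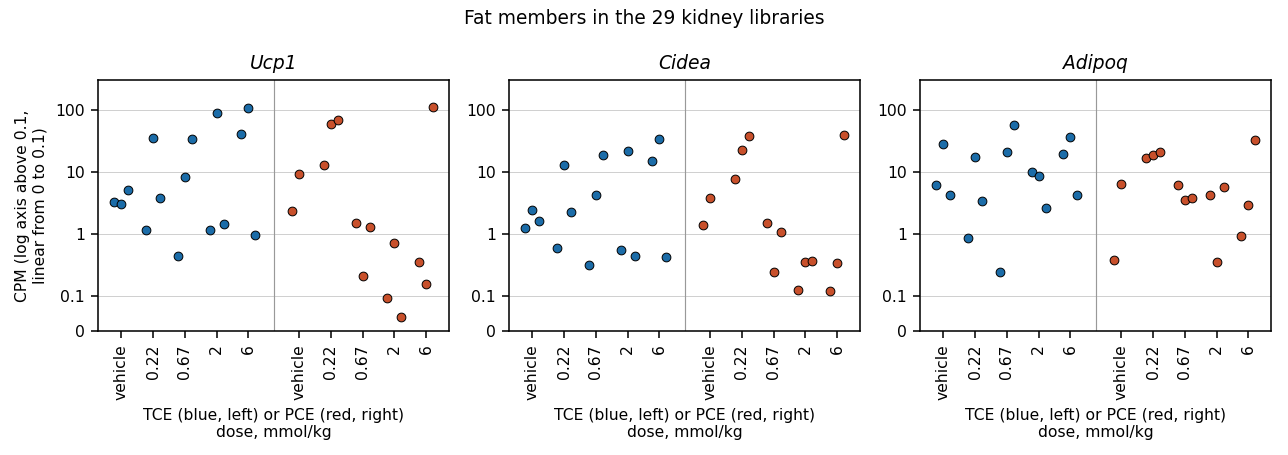
CPM of Ucp1, Cidea and Adipoq in each of the 29 kidney libraries, by chemical and dose (mmol/kg) with vehicle at the left of each series; each point is 1 library and the CPM axis is logarithmic above 0.1 and linear below. Single libraries reach 90.4 CPM of Ucp1 at TCE 2 mmol/kg and 111 CPM at PCE 6 mmol/kg, where the other libraries of the group have at most 1.46 and 0.360 CPM.

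The 2 brown fat genes were set against each other and against Adipoq. Over the 29 libraries, Ucp1 and Cidea correlated at r = 0.985 (Spearman rho 0.970), Ucp1 and Adipoq at r = 0.730 (rho 0.737) and Cidea and Adipoq at r = 0.774 (rho 0.800) in log2(CPM + 0.5). Ucp1 made up 0.709 to 91.4% of the counts of Ucp1 and Adipoq together, with a median of 44.1%. Library 2 of TCE 2 mmol/kg had 91.4% (95% exact interval 90.3 to 92.4%) with 2591 counts of Ucp1 and 245 of Adipoq. The same library was the highest of the 29 in the tubule genes Umod (90.4 CPM, against a median of 41.9, with the same deposited count as Ucp1), Slc12a1 (51.4 CPM, against 15.3) and Aqp2 (607.3 CPM, against 201.4) and in the B cell gene Cd79b (2.83 CPM, against 0.741), and their part in the result was not tested. Library 2 of TCE vehicle had 9.86% (7.86 to 12.2%) with 77 counts of Ucp1 and 704 of Adipoq, and library 3 of PCE 2 mmol/kg had 0.709% (0.0180 to 3.89%). Per kilobase of transcript, library 2 of TCE 2 mmol/kg held 55.3 CPM per kb of Ucp1 and 6.62 CPM per kb of Adipoq, and library 2 of TCE vehicle 1.90 and 21.9 CPM per kb.

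**Figure D4:**
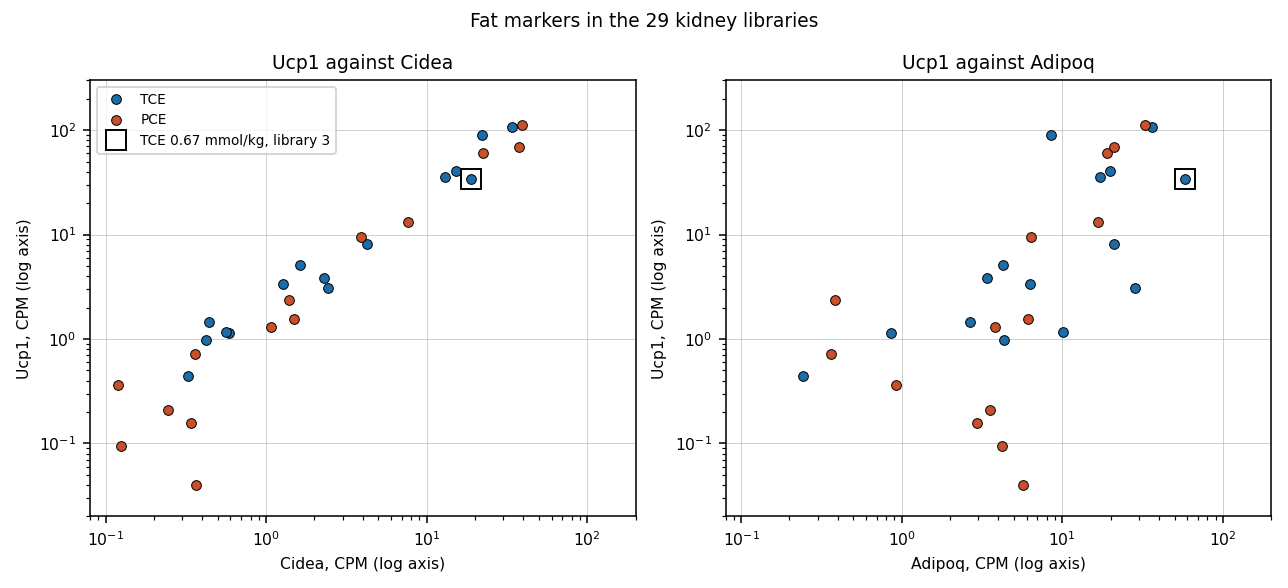
Ucp1 against Cidea (left) and against Adipoq (right) in CPM on logarithmic axes, 1 point for each of the 29 kidney libraries; the square marks library 3 of TCE 0.67 mmol/kg. Ucp1 and Cidea lie along 1 line, while at Adipoq levels between 5.66 and 32.7 CPM Ucp1 lies anywhere between 0.0404 and 111 CPM.

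Genes among the most like the mean of the 3 fat members were Cox8b (r = 0.977), a cytochrome oxidase subunit of heart, muscle and brown fat in mice, Nat8l (0.975), which makes N-acetylaspartate, Slc36a2 (0.973), an amino acid transporter, and Otop1 (0.963), a proton channel. Without library 3 of TCE 0.67 mmol/kg these were 0.962 to 0.975. Of the 10 further brown fat genes listed, Zic1 was at 0 in all 29 libraries and Lhx8 had 1 count in 1 library, and both are known for interscapular brown fat in mice. Dio2, Elovl3 and Otop1 were highest at 4.68, 3.77 and 6.56 CPM, each in a library that was also above 100 CPM in the fat sum. Cox8b, Prdm16 and Adrb3 were also highest in such libraries. Fabp3 (66.5 to 121.8 CPM over the 29 libraries) was instead highest in library 1 of PCE 6 mmol/kg, with a fat sum of 1.40 CPM. Cox7a1 (14.1 to 22.1 CPM) was highest in library 1 of PCE 0.67 mmol/kg, with a fat sum of 9.11 CPM. Kidney itself expresses some listed genes at a high level, such as Lpl (938 to 2250 CPM) and Gpd1 (683 to 902 CPM).

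The adrenal and fat signals were high in partly different libraries. Taking 10 times the median again, 5 libraries were above 108.7 CPM in the sum of the fat members, at 110.6 CPM in library 3 of TCE 0.67, 121 CPM in library 2 of TCE 2, 176.9 CPM in library 2 of TCE 6, 127.2 CPM in library 3 of PCE 0.22 and 183.3 CPM in library 3 of PCE 6 mmol/kg. Library 2 of PCE 0.22 mmol/kg was just below, at 101.5 CPM. Of the 10 libraries above the enzyme line, 3 were among these 5, and 17 of the 29 libraries were above neither. Library 3 of PCE 6 mmol/kg had the highest fat sum with 0.0340 CPM of adrenal enzymes, and library 1 of PCE 0.67 mmol/kg had 6.92 CPM of enzymes with 9.11 CPM of fat members. All 5 fat-high libraries were from dosed mice, and 0 of 5 vehicle libraries were among them. Between Cyp21a1 and Ucp1 the correlation over libraries was 0.269, and it was 0.197 without library 3 of TCE 0.67 mmol/kg.

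Turning to the comparisons of each dose with its own vehicle group, no member was called in kidney at a Benjamini-Hochberg adjusted p under 0.05 by edgeR's quasi-likelihood test. Of the 9, 7 passed the count filter, and Th and Dbh, counted above 4 in 1 library only, did not. Over all 14216 genes tested, the share called was 0% at TCE 0.22, 0.00703% at TCE 0.67, 0% at TCE 2 and 0.176% at TCE 6 mmol/kg. It was 0% at PCE 0.22, 0% at PCE 0.67, 0.0141% at PCE 2 and 3.83% at PCE 6 mmol/kg. In the comparisons with 0 calls, 606 to 1173 genes had an unadjusted p under 0.05, and DESeq2 called 0 genes at TCE 0.22, TCE 2 and PCE 0.22 and 3 at PCE 0.67 mmol/kg. Of the 56 tests of members, 4 had an unadjusted p under 0.05, those of the 4 cortex genes at TCE 0.67 mmol/kg, and DESeq2 called 0 of those to which it gave an adjusted p. Since the members were chosen with these levels known, nothing is read from their place against those shares.

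The largest member differences were at TCE 0.67 mmol/kg, where 1 library carried them. The fitted log2 fold change was 13.37 ± 3.17 (SE) for Cyp11b1, 13.36 ± 2.94 for Cyp11a1, 12.06 ± 2.71 for Cyp21a1 and 6.64 ± 1.43 for Star, with edgeR adjusted p of 0.162 to 0.186. The vehicle libraries held 1 count of Cyp11b1 and 2 of Cyp11a1 in all, so those fitted values depend on the prior count. Their median was 12.71, against 0.0068 over all genes tested. Of 9 tested cortex genes outside the members, 9 had a positive log2 fold change and 0 were called, with a median of 3.11. Of 7 tested medulla genes, 5 were positive and 0 were called, with a median of 0.886.

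The 4 cortex members were called at TCE 0.67 mmol/kg under 3 alternatives. With both vehicle groups pooled, 35 genes were called at TCE 0.67 mmol/kg, all higher, and 22 of them were among the genes that set library 3 apart. Among them were Star, with a log2 fold change of 6.68 ± 1.11, Cyp21a1 with 10.39 ± 1.85, Cyp11a1 with 10.40 ± 1.83 and Cyp11b1 with 10.66 ± 1.99, at edgeR adjusted p of 0.0156 to 0.0255. Leaving out library 1 of the dose gave 200 calls, and leaving out library 2 gave 54, each with the 4 cortex members. Without library 3 itself, 0 genes were called. DESeq2 called 32 genes there, 5 of them among the genes that set library 3 apart, and gave the 4 cortex members no adjusted p.

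The gene called at TCE 0.67 mmol/kg with all libraries was Slc29a4, a monoamine and adenosine transporter, with a log2 fold change of 4.08 ± 0.63 and an edgeR adjusted p of 0.0196. It had 8.42, 0.302 and 7.58 CPM at TCE 0.67 mmol/kg, against 0.219, 0.322 and 0.400 CPM in TCE vehicle. Library 1, which had the highest value, held 0.0405 CPM of the 3 adrenal enzymes and 3.56 CPM of Star. It was chosen for mention after its values were seen, as the only call of that comparison.

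At the other doses no member was called either. Ucp1 and Cidea had log2 fold changes of 3.68 ± 1.96 and 3.22 ± 1.76 at TCE 6 mmol/kg, with edgeR adjusted p of 0.561 and 0.572. At PCE 6 mmol/kg they were 2.65 ± 2.17 and 2.31 ± 1.93, and Adipoq was 1.82 ± 1.61. At PCE 0.22 mmol/kg Ucp1, Cidea and Adipoq were 2.99 ± 2.20, 3.08 ± 1.98 and 2.44 ± 1.63. At PCE 2 mmol/kg Ucp1 was -4.37 ± 2.91 and Cidea -3.26 ± 2.49. The doses of a chemical share their vehicle libraries.

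Counted by libraries that do not overlap, 7 of 9 members were higher in all 3 libraries of PCE 0.22 mmol/kg than in both vehicle libraries, where 15.3% of all genes tested were. The 7 were Cyp11b1, Cyp11a1, Cyp21a1, Star, Ucp1, Cidea and Adipoq. Cyp11a1 and Star were higher in all libraries of TCE 2 mmol/kg than in its vehicle group, where 3.83% of genes were. For Cyp11a1 the lowest of those libraries had 0.140 CPM, against at most 0.0877 CPM in vehicle. Both lie near the value of 3 counts, 0.0925 to 0.129 CPM, so that gap is small against counting error. Ucp1 was lower in all libraries of PCE 0.67 mmol/kg, where 15.5% of genes were, and Ucp1 and Cidea in all of PCE 2 mmol/kg, where 12.1% of genes were.

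Of the genes listed beside the members, 1 adrenal gene was called in kidney, Slc18a1 at PCE 6 mmol/kg. Slc18a1, the vesicular monoamine transporter of chromaffin cells, had 208.9, 207.0 and 241.9 CPM at PCE 6 mmol/kg, against 344.1 and 384.1 CPM in PCE vehicle. It fell by 0.73 ± 0.15 on the log2 scale (edgeR adjusted p = 0.00615). It was at 207 to 411 CPM in all 29 kidney libraries and at 349 CPM in library 3 of TCE 0.67 mmol/kg, so it did not follow Th and Dbh. Kap, the androgen-regulated protein of the mouse proximal tubule, was the tubule gene called in the same comparison (-0.52 ± 0.12, edgeR adjusted p = 0.0103). No gene of the brown fat or adipocyte lists was called in any kidney comparison. At PCE 6 mmol/kg 9 of 14 tested adipocyte genes and 6 of 7 tested brown fat genes had positive log2 fold changes. Their medians were 0.896 and 2.37, against 0.0305 over all genes tested. In the sum of the fat members, library 3 of that dose had 183.3 CPM and libraries 1 and 2 had 1.40 and 3.43 CPM. The PCE vehicle libraries had 4.15 and 19.66 CPM. How far these medians rested on library 3 was not tested.

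How far the high libraries entered the counts of genes called was read by leaving them out or by fitting a score as a covariate. The adrenal sum was that of all 6 adrenal members, Star included, and a library was high in it above 10 times the median, 46.47 CPM. At TCE 6 mmol/kg 25 genes were called with all libraries and 33 without the 1 library high in the adrenal sum. The count was 0 without the 5 libraries high in the fat sum. That fit kept 2 of the 3 libraries of the dose. Leaving out library 2 of that dose alone, the fat-high one, also gave 0. So did leaving out library 1, which was not above the line of the fat sum (75.5 CPM). Leaving out library 3, also below that line at 5.71 CPM, gave 46. Among the vehicle libraries, leaving out library 1, with a fat sum of 10.87 CPM, gave 0 as well. Leaving out vehicle library 2 (33.88 CPM) gave 10 and vehicle library 3 (10.97 CPM) gave 55. Why the calls changed was not tested. With all libraries kept and the fat score, the mean log2(CPM + 0.5) of the 3 members, as a covariate, 14 genes were called, of which 12 were shared with the 25. With the adrenal score 27 were called, of which 24 were shared.

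The 5 genes with the smallest adjusted p among those that lost the call at TCE 6 mmol/kg kept their direction and most of their size. Kmo, the kynurenine 3-monooxygenase, had a log2 fold change of -0.51 ± 0.08 with all libraries and -0.47 without the 5. Ivd, the isovaleryl-CoA dehydrogenase of leucine breakdown, had -0.42 ± 0.07 and -0.38, and Acad12, an acyl-CoA dehydrogenase family member, -0.51 ± 0.09 and -0.47. Eci3, an enoyl-CoA isomerase, had -0.75 ± 0.13 and -0.64, and Ggct, the gamma-glutamylcyclotransferase, -0.81 ± 0.14 and -0.75. Their edgeR adjusted p was 0.0158 with all libraries and 0.131 to 0.177 without the 5.

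At PCE 6 mmol/kg the calls changed less. There 545 genes were called with all libraries, 252 higher and 293 lower, and 617 without the 5 libraries, of which 436 were shared. As covariates, the fat score gave 584 calls with 534 shared, and the adrenal score 529 with 506 shared. The 5 genes with the smallest adjusted p that lost the call were Olfr613, Gm6300, Commd2, Cplane1 and Zfp280c. Olfr613 had a log2 fold change of -0.58 ± 0.14 with all libraries and -0.55 without the 5, where its edgeR adjusted p was 0.0539. Zfp280c was not tested without the 5. Leaving out PCE vehicle library 1 gave 113 calls and library 2, the enzyme-high one, 62, and leaving out all 10 enzyme-high libraries, which kept 1 PCE vehicle library, gave 29.

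**Figure D5:**
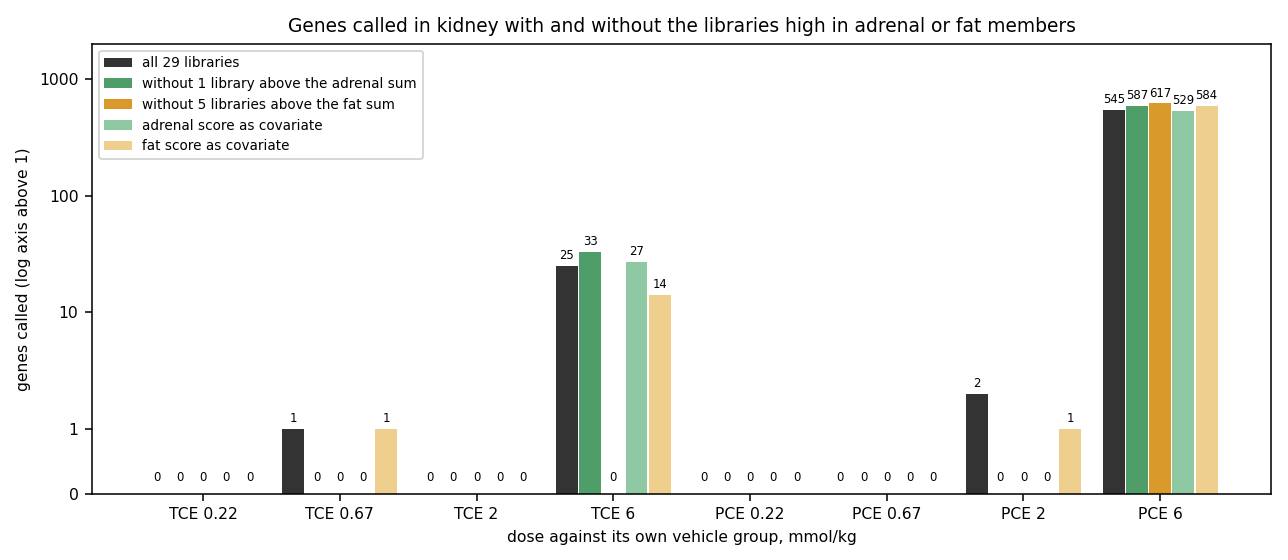
Genes called at an edgeR adjusted p under 0.05 in the 8 kidney dose comparisons with all 29 libraries, without the libraries high in the adrenal or fat sum, and with the adrenal or fat score as a covariate; bars start at 0 and the axis is logarithmic above 1. TCE 6 mmol/kg has 25 genes with all libraries and 0 without the 5 fat-high libraries, and PCE 6 mmol/kg has 545 and 617.

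At PCE 2 mmol/kg the 2 calls were Asns, the asparagine synthetase, and Actb, cytoplasmic beta-actin, named because they were the whole count. Asns had 12.5, 25.3 and 19.4 CPM at PCE 2 mmol/kg, against 3.92 and 3.35 CPM in PCE vehicle (2.39 ± 0.40 on the log2 scale, edgeR adjusted p = 0.0490). Actb had 652.9, 603.8 and 576.7 CPM, against 829.3 and 793.9 CPM. Neither group of that comparison held a library high in the adrenal or fat sum, but library 2 of its vehicle group was above the enzyme line (2.45 CPM). The count was 0 without the libraries of other groups that were high in the adrenal or fat sum. All groups share 1 estimate of the spread. It was also 0 with 1 chemical fitted alone, with the replicate block and without a count filter. The cause was not tested.

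The liver libraries allowed tests that the choice of members did not use. Ucp1 had at most 1 count in any of 29 liver libraries, Cidea at most 5 and Adipoq at most 8, and Th and Dbh were at 0 in 27 and 27 of them. Cyp11b1 was at 0 in 28 and Cyp11a1 in 19. Star and Cyp21a1 were the 2 members that passed the count filter in liver, where they were found in all 29 libraries at 1.49 to 4.75 CPM and 2.45 to 24.2 CPM.

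In liver, Cyp21a1 had 4.94, 4.41 and 2.45 CPM at PCE 6 mmol/kg, against 8.00, 19.4 and 4.30 CPM in PCE vehicle. The 19.4 CPM was in vehicle library 2, the liver library with Cyp11b1 and Cyp11a1 counts described below. Its part in the difference was not tested. The highest liver value of Cyp21a1, 24.2 CPM, was in library 1 of PCE 0.67 mmol/kg. The PCE 6 mmol/kg and vehicle groups overlapped, and the log2 fold change of -1.42 ± 0.54 was not called (edgeR adjusted p = 0.109). At TCE 6 mmol/kg Cyp21a1 had 5.53, 5.08 and 3.60 CPM, against 14.0, 5.54 and 12.6 CPM in TCE vehicle, and a log2 fold change of -1.18 ± 0.54 (edgeR adjusted p = 0.384). At TCE 0.22 mmol/kg it had 2.85, 4.36 and 3.62 CPM, a log2 fold change of -1.57 ± 0.56 (edgeR adjusted p = 0.640). Cyp21a1 was lower in all 3 libraries of TCE 6 mmol/kg than in all 3 vehicle libraries, where 10.2% of genes tested in liver were, and likewise at TCE 0.22 mmol/kg, where 8.01% were. Vehicle libraries 1 and 3 of TCE held 19580 and 11250 CPM of Saa1, an acute phase gene, and library 2 held 103.9 CPM. But library 3 of TCE 0.67 mmol/kg had 12.4 CPM of Cyp21a1 with 101.3 CPM of Saa1, and library 1 of PCE 6 mmol/kg 4.94 with 7377 CPM. The part of this difference among vehicle libraries was not tested. For Star the 8 log2 fold changes lay between -0.48 ± 0.28 at PCE 6 mmol/kg and 0.22 ± 0.28 at TCE 0.67 mmol/kg, and none was called. At PCE 6 mmol/kg Star had 1.86 to 2.16 CPM, against 1.71, 1.75 and 4.75 CPM in PCE vehicle. The 4.75 CPM was in vehicle library 2, so the negative value rested on that library. The other vehicle libraries were below all libraries of the dose.

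Over all 13174 genes tested in liver, the share called was 0% at TCE 0.22, 0.00759% at TCE 0.67, 0.00759% at TCE 2 and 1.31% at TCE 6 mmol/kg. It was 0.00759% at PCE 0.22, 0.00759% at PCE 0.67, 0.182% at PCE 2 and 5.84% at PCE 6 mmol/kg. Of the 16 tests of members in liver, 3 had an unadjusted p under 0.05 and 0 were called. Cyp21a1 lies next to the complement gene C4a on chromosome 17, which had 70.3 to 253.3 CPM in liver. Reads running past C4a into Cyp21a1 cannot be told apart from its own reads in these counts.

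One liver library also held counts of adrenal cortex genes. Library 2 of PCE vehicle had 0.836 CPM of Cyp11b1 (76 counts), 2.00 CPM of Cyp11a1 (182 counts), 4.75 CPM of Star and 2.38 CPM of Hsd3b1. Libraries 1 and 3 of that group had 0 counts of Cyp11b1 and of Cyp11a1, and 1.75 and 1.71 CPM of Star. No other liver library exceeded 0.129 CPM of Cyp11a1. The 6 B and T lymphocyte genes summed to 8.53 CPM in it, against at most 5.99 CPM in any other liver library, and 22.3% of its counts fell on no feature, the highest share in liver. Their part in the result was not tested. In it Th and Dbh had 5 counts, 1.90% (0.620 to 4.38%) of their sum with Cyp11b1 and Cyp11a1. The kidney library with the same chemical, dose and number was the vehicle library above the enzyme line, and the labels do not say whether both came from 1 animal.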

How the data were processed

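RNA sequencing counts of 29 kidney and 29 liver libraries were used. The deposited tables hold raw read counts per RefSeq transcript, 1 column per library, per the file headers. The columns of the 0.22 and 0.67 mmol/kg libraries carry a decimal dose line so these deposited columns have the unit expected counts, although every gene's value was whole and needed no rounding. CASAVA 1.8.2, TopHat2 2.0.10, HTSeq and mm10 are listed in the submitters' processing notes, with no roles, and the strand setting is not stated. The lines of ambiguous reads (19.68 to 22.55% of a library) and of reads without a feature (14.29 to 27.53%) were left out.

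Counts of 33392 transcripts were summed to 24122 genes. Each dose was compared with its own vehicle group in edgeR 4.0.16 (R 4.3.3) by TMM, filterByExpr, 1 mean per group over the 10 groups of a tissue and the robust quasi-likelihood F test, two-sided, with calls at an adjusted p (Benjamini-Hochberg) under 0.05. DESeq2 1.42.0, another filter, pooled vehicles, left-out libraries and covariates were alternatives. Members, marker lists and tests were chosen with earlier results of these data known. Every member is named, with listed companion genes that were called, the 5 genes most like each group of members (1 of those for fat is not reported here), and the 5 lost calls with the smallest adjusted p at 6 mmol/kg.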

Additional observations from a re-analysis of the deposited data

Results flagged for a closer look

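In 3 places every library of the PCE group lay on 1 side of its vehicle mean and every library of the TCE group at the same molar dose on the other side, on the log2(CPM + 0.5) scale. The differences were not tested. For Cyp11a1 at 2 mmol/kg the mean difference from vehicle was -0.71 in PCE and 1.30 in TCE, so PCE minus TCE was -2.01. For Cyp21a1 at 2 mmol/kg it was -0.73 in PCE and 1.39 in TCE, a difference of -2.12. For Cyp21a1 at 0.22 mmol/kg it was 1.60 in PCE and -0.061 in TCE, a difference of 1.66. The TCE libraries at 0.22 mmol/kg had 0.0364 to 0.0750 CPM of Cyp21a1, against 0 to 0.182 CPM in TCE vehicle. These values lie at or near that of 3 counts, 0.0925 to 0.129 CPM, so the TCE side has no clear direction there. The PCE vehicle group had 2 libraries, at 0.0384 and 1.05 CPM of Cyp21a1 and at 0 and 0.956 CPM of Cyp11a1. All 3 values are in genes chosen on these libraries.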

How the results depend on the processing

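Every value followed here was a count of calls, which has no direction to reverse. The 109 values came from alternatives that kept or changed libraries other than 1 at a time. Of these, 73 stayed within 1.5 times the count with the main settings and 36 did not. Most of the 73 were 0 under both settings, as at TCE 0.22 and PCE 0.22 mmol/kg and for the members in liver. At TCE 0.67 mmol/kg (1 gene with the main settings), DESeq2 called 32 genes and pooled vehicle groups 35. There 0 were called with 1 chemical fitted alone, with the replicate block, without libraries high in the adrenal sum, fat sum, either sum or enzyme sum, and with the adrenal score or both scores as covariates. The fat sum and either sum left out the same 5 libraries, so their values are not separate at any dose. Every one of these sums left out library 3 of TCE 0.67 mmol/kg. At TCE 2 mmol/kg (0), leaving out the libraries above the enzyme sum, an alternative chosen after seeing the data, left 1 dosed library and gave 517. At TCE 6 mmol/kg (25), the count was 11 without a count filter, 160 by DESeq2, 11 with 1 chemical alone, 43 with pooled vehicles, 0 without libraries high in the fat sum or either sum, 1 without those above the enzyme sum, 14 with the fat score and 13 with both scores. At PCE 0.67 mmol/kg (0), DESeq2 called 3. At PCE 2 mmol/kg (2), DESeq2 and pooled vehicles gave 49 each, the fat score 1, and 0 were called without a count filter, with 1 chemical alone, with the replicate block, without libraries above any of the sums, and with the adrenal score or both scores. At PCE 6 mmol/kg (545), DESeq2 gave 862, pooled vehicles 1359 and the fit without libraries above the enzyme sum, with 1 vehicle library left, 29. No value at PCE 0.22 mmol/kg could be had in that fit, since none of its libraries remained. The cause of these changes was not tested.

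Leaving out 1 library of either group at a time gave 0 to 200 genes at TCE 0.67, 0 to 1 at TCE 2, 0 to 55 at TCE 6, 0 to 10 at PCE 2 and 62 to 841 at PCE 6 mmol/kg. It gave 0 at TCE 0.22, PCE 0.22 and PCE 0.67 mmol/kg. In liver no member was called under any alternative.

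Same-numbered dose and vehicle libraries did not deviate together: over 20 pairs the correlation of their deviations from group means was -0.341 to 0.195, and 3 were above 0.1. The replicate block gave 23 genes at TCE 6 and 489 at PCE 6 mmol/kg.

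Depth limits the medulla shares, since 9 of the 10 libraries above the enzyme line held only 43 to 190 enzyme counts. Th and Dbh were not tested in kidney.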
